A study of Mus musculus with 6 samples.

Results

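Cadherins, catenins and desmosome genes build the junctions that hold epithelial cells together, and 10 of them (Cdh1, Cdh2, Cdh16, Ctnnb1, Ctnnd1, Jup, Dsp, Dsg2, Dsc2 and Pkp1) were followed in mouse prostate luminal cells with and without a Csf-1 transgene. They were picked by gene symbol, not by their values, from tables that list 24346 gene symbols, and they hold 17 of the 34535 listed transcripts. A gene's level is the sum over its transcripts in FPKM, a fragment count scaled by the length of the transcript and by the mapped fragments of the library. The CSF1 group carried mouse Csf-1, a growth factor of macrophages, under the promoter of rat probasin, a gene of the secretory luminal cells. The WT group were littermates without it. Both groups were C57BL/6 mice at 4 months of age, and in both the luminal cells were isolated by fluorescence-activated sorting on markers that the labels do not name. Each group has 3 libraries, numbered 3, 5 and 8 in the titles of both groups, and values below follow that order. What the numbers stand for, and whether the libraries are separate animals, is not stated, so the p-values cover the spread between these samples alone.

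In an adherens junction, a classical cadherin such as E-cadherin binds its like on the neighbouring cell. Inside the cell, beta-catenin holds the cadherin's tail and joins it through alpha-catenin to actin, while p120-catenin binds nearer to the membrane and keeps the cadherin at the surface. Desmosomes use another pair of cadherins, the desmogleins and desmocollins, which plakoglobin, plakophilins and desmoplakin tie to keratin filaments. Beta-catenin also enters the nucleus as a partner of TCF transcription factors in Wnt signalling. Luminal cells of the prostate are a simple secretory epithelium held together by E-cadherin, while the basal cells beneath them also carry P-cadherin.

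The depth of the libraries is known only through Cufflinks' coverage per FPKM, which was 4.17 to 5.01 in CSF1 and 2.72 to 3.50 in WT. The transgene was plain in its own mRNA, with Csf1 at 1082, 1326 and 1678 FPKM in CSF1 against 1.54, 2.25 and 3.98 FPKM in WT. By limma on log2(FPKM + 1), at a threshold of 0.05 on the adjusted p, CSF1 was higher in 2731 and lower in 818 of the 10951 genes tested, and the median change of all of them was 0.17 on that log2 scale. That median moved to -0.15 with quantile normalization and to -0.03 with median-ratio scaling, and 76.95%, 43.8% and 53.6% of the calls were on the higher side under the 3 scalings. Luminal markers were high throughout, with a summed level of 7591 to 10310 FPKM in CSF1 and 6141 to 8168 FPKM in WT, and 3 of 10 passed as higher and 1 as lower. Markers of other cells were higher in CSF1. All 6 tested of 7 basal markers passed as higher, with a sum of 536 to 844 FPKM in CSF1 and 44.0 to 65.9 FPKM in WT. All 9 macrophage markers passed, with 601 to 2427 FPKM in CSF1 and 16.0 to 92.3 FPKM in WT, and CSF1 library 8 stood far above the others. All 8 tested of 9 fibroblast and smooth muscle markers passed, with 520 to 781 FPKM in CSF1 and 102 to 113 FPKM in WT. Several markers of these lists, such as Col17a1, Csf1r and Col1a1, reached the filter of a mean of 1 FPKM only through their CSF1 libraries. The counts that passed therefore cannot be read as support. The 6 endothelial markers summed to 12.2 to 16.4 FPKM in CSF1 and 0.866 to 3.35 FPKM in WT, and only 3 of them reached the filter of a mean of 1 FPKM, through their CSF1 libraries. The 5 seminal vesicle markers summed to 5.77 to 22.4 FPKM in CSF1 and 1.71 to 2.63 FPKM in WT, and 3 or 4 of them were listed at 0 in every library but CSF1 library 3. Listed at 0 were also Trp63 in WT library 5, Aif1 in WT library 3, Tagln in WT libraries 3 and 8, Emcn and Cldn5 in WT libraries 5 and 8, Tek in WT library 5 and Kdr in WT library 8. The part of these other markers in the results below was not tested, and fewer cells of a type and less RNA per cell cannot be told apart in such bulk samples.

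E-cadherin and beta-catenin mRNA were about 2-fold higher in CSF1, and p120-catenin mRNA was 1.36-fold higher, a call that held under 6 of 17 alternative settings. Plakoglobin, desmoplakin, desmoglein 2 and desmocollin 2 did not pass the test. The difference between adherens and desmosome genes as groups was not itself tested. Of the 10 genes, 7 reached the filter of a mean of 1 FPKM and were tested. Of those, 3 passed as higher, 0 as lower and 4 did not pass, where 32.4% of all tested genes passed in either direction, 24.9% as higher and 7.47% as lower. The groups did not overlap in 3 of the 7, each higher in CSF1, as in 47.7% of all tested genes in either direction and 34.7% as higher. The median change of the 7 was 0.33 on the log2(FPKM + 1) scale. Cdh2, Cdh16 and Pkp1 fell under the filter.

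**Figure D1:**
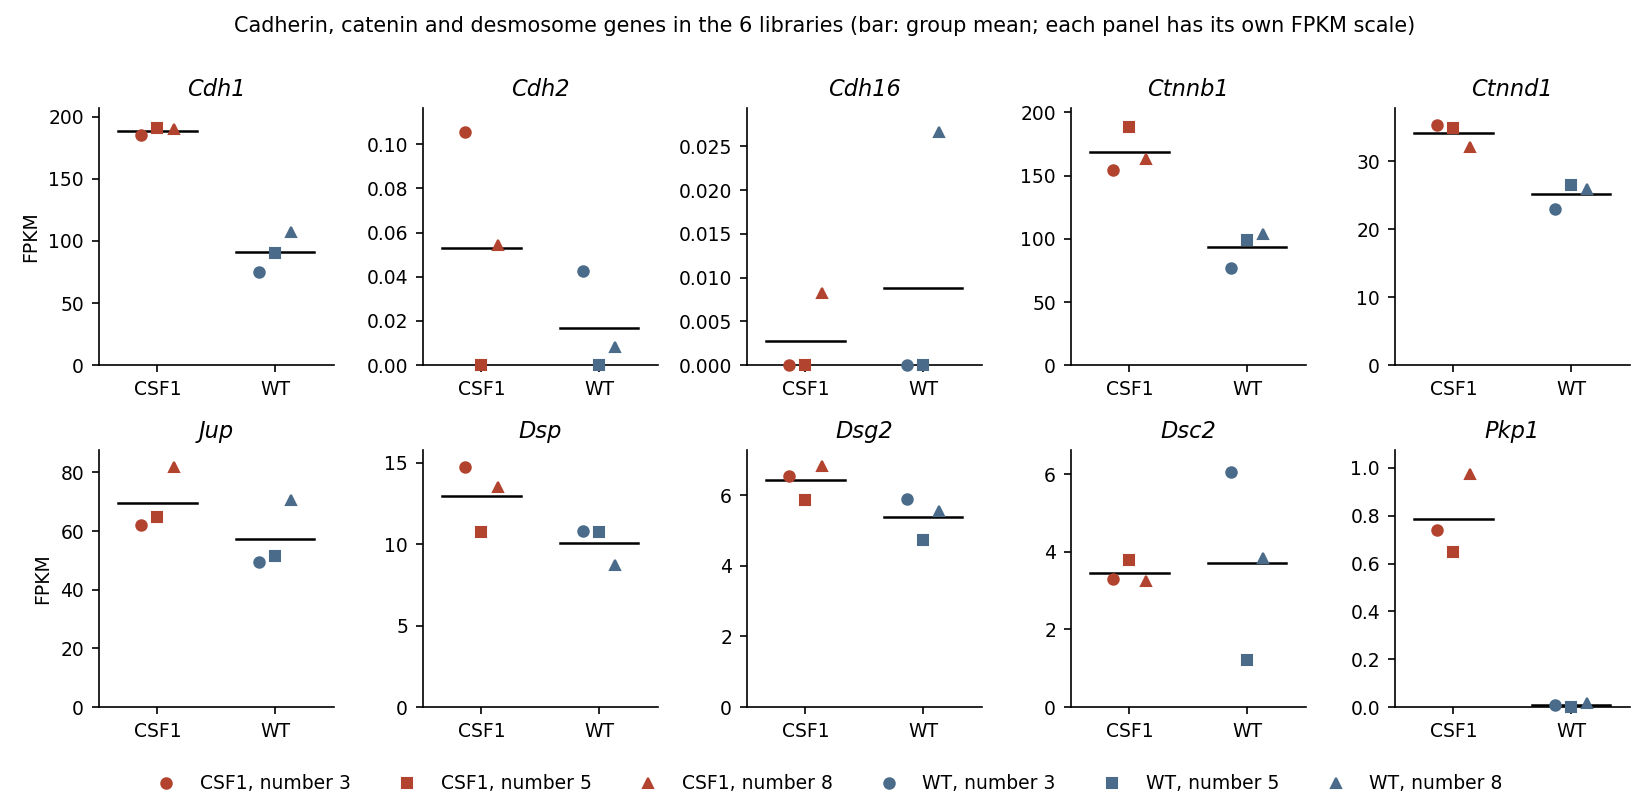
Level in FPKM of each of the 10 genes in every library, CSF1 left and WT right in each panel, with the marker shape giving the library number and a bar at the group mean. The CSF1 and WT points are apart for Cdh1, Ctnnb1, Ctnnd1 and Pkp1 and overlap for the other 6 genes.

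Cdh1, the gene of E-cadherin, lies at chr8:106603351-106670246 on the plus strand (GRCm38) and has 1 listed transcript. It was at 184.9, 191.1 and 190.4 FPKM in CSF1, against 74.7, 89.98 and 107.5 FPKM in WT. The CSF1 libraries sat close together and all lay above the highest WT library, while the WT libraries spread more widely. The means were 188.8 ± 3.41 FPKM in CSF1 and 90.7 ± 16.4 FPKM in WT (SD, n = 3 each), a ratio of 2.08. The log2 change was 1.06 ± 0.15 (SE, 95% interval 0.72 to 1.41, limma adjusted p = 0.00102), and the exact two-sided permutation test gave p = 0.1, the smallest that 3 against 3 allows. Cufflinks' own interval for 1 library was narrow beside the spread over libraries, for example 73.2 to 76.2 FPKM in WT library 3. Pairing by number, the fold of CSF1 over WT was 2.47 for number 3, 2.12 for number 5 and 1.77 for number 8. The call held under all 17 alternatives tried, with a log2 change of 0.83 to 1.19. Set against the median change of all genes, Cdh1 stood 0.89 higher on the log2 scale with FPKM as deposited, 1.03 higher with quantile normalization and 0.86 higher with median-ratio scaling.

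Because markers of other cell types differed between the groups, Cdh1 was also read against other epithelial genes, as a description chosen after the data were seen. Per 100 FPKM of Epcam, an epithelial surface adhesion molecule, Cdh1 was at 19.2, 22.5 and 18.2 in CSF1 and at 11.9, 14.7 and 15.1 in WT, with no overlap. Epcam was itself higher in CSF1, at 965, 850 and 1046 FPKM against 631, 612 and 711 FPKM in WT. A level per Epcam, here and below, is lowered in CSF1 by that difference. Against 100 FPKM of Krt18, a luminal keratin, it was at 10.7, 9.55 and 7.16 in CSF1 and at 3.64, 4.25 and 4.03 in WT, again with no overlap. Against 100 FPKM of the partner keratin Krt8 the groups overlapped, with 12.9, 13.6 and 8.16 in CSF1 and 6.05, 8.57 and 6.25 in WT.

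Cdh2 and Cdh16 were near the floor in both groups. Cdh2, the gene of N-cadherin of neural and mesenchymal cells (chr18:16588877-16809246, minus strand), was at 0.105, 0 and 0.0542 FPKM in CSF1 and at 0.0424, 0 and 0.00829 FPKM in WT. Cdh16, the gene of a kidney cadherin (chr8:104601911-104624396, minus strand), was listed at 0 in CSF1 libraries 3 and 5 and in WT libraries 3 and 5. It reached 0.00829 FPKM in CSF1 library 8 and 0.0266 FPKM in WT library 8. Cufflinks' interval reached down to 0 in both libraries where Cdh16 was above 0, and without the filter neither gene passed (limma adjusted p = 0.644 for Cdh2 and 0.867 for Cdh16). E-cadherin was thus nearly all of the cadherin mRNA in both groups, at 92.5 ± 1.83% of the FPKM summed over 23 listed cadherin genes in CSF1 and 97.4 ± 0.165% in WT (SD, n = 3 each).

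The rest of the cadherin mRNA was not the same in the 2 groups. Of 20 other cadherin genes 4 passed the filter, and all 4 were higher in CSF1, a count that cannot be read as support because each passed the filter chiefly through its CSF1 libraries. Cdh11, a cadherin of mesenchymal cells, was at 2.48, 8.21 and 1.31 FPKM in CSF1 and at 0.138, 0.124 and 0.0750 FPKM in WT (log2 change 1.92, limma adjusted p = 0.0117). Cdh17, first known from liver and intestine, was at 2.63, 2.67 and 3.18 FPKM in CSF1 and at 0.0289, 0.105 and 0 FPKM in WT (log2 change 1.87, limma adjusted p = 0.000261). Cdh17 was the most even of the 4 across the CSF1 libraries, and Cdh11 the most uneven.

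Cdh13, which is anchored in the membrane by a lipid and has no catenin-binding tail, was at 4.29, 6.26 and 3.15 FPKM in CSF1 and at 0.0905, 1.27 and 0.673 FPKM in WT (log2 change 1.76, limma adjusted p = 0.00352). Cdh3, the gene of P-cadherin of basal epithelial cells, was at 1.44, 2.03 and 3.83 FPKM in CSF1 and at 0.287, 0.254 and 0.639 FPKM in WT (log2 change 1.25, limma adjusted p = 0.0112). The calls held under 13 of 16 alternatives for Cdh3, 14 of 16 for Cdh11, 16 of 17 for Cdh13 and 17 of 17 for Cdh17. Cdh11 and Cdh13 were highest in CSF1 library 5, which also had the highest sum of fibroblast and smooth muscle markers. Cdh3 was highest in CSF1 library 8, which had the highest sums of basal, luminal, macrophage and endothelial markers alike. The basal marker Trp63 did not follow the basal sum, at 1.22, 1.12 and 0.338 FPKM in CSF1 and 0.364, 0 and 0.0923 FPKM in WT. The part of those cells in the 4 changes was not tested.

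**Figure D2:**
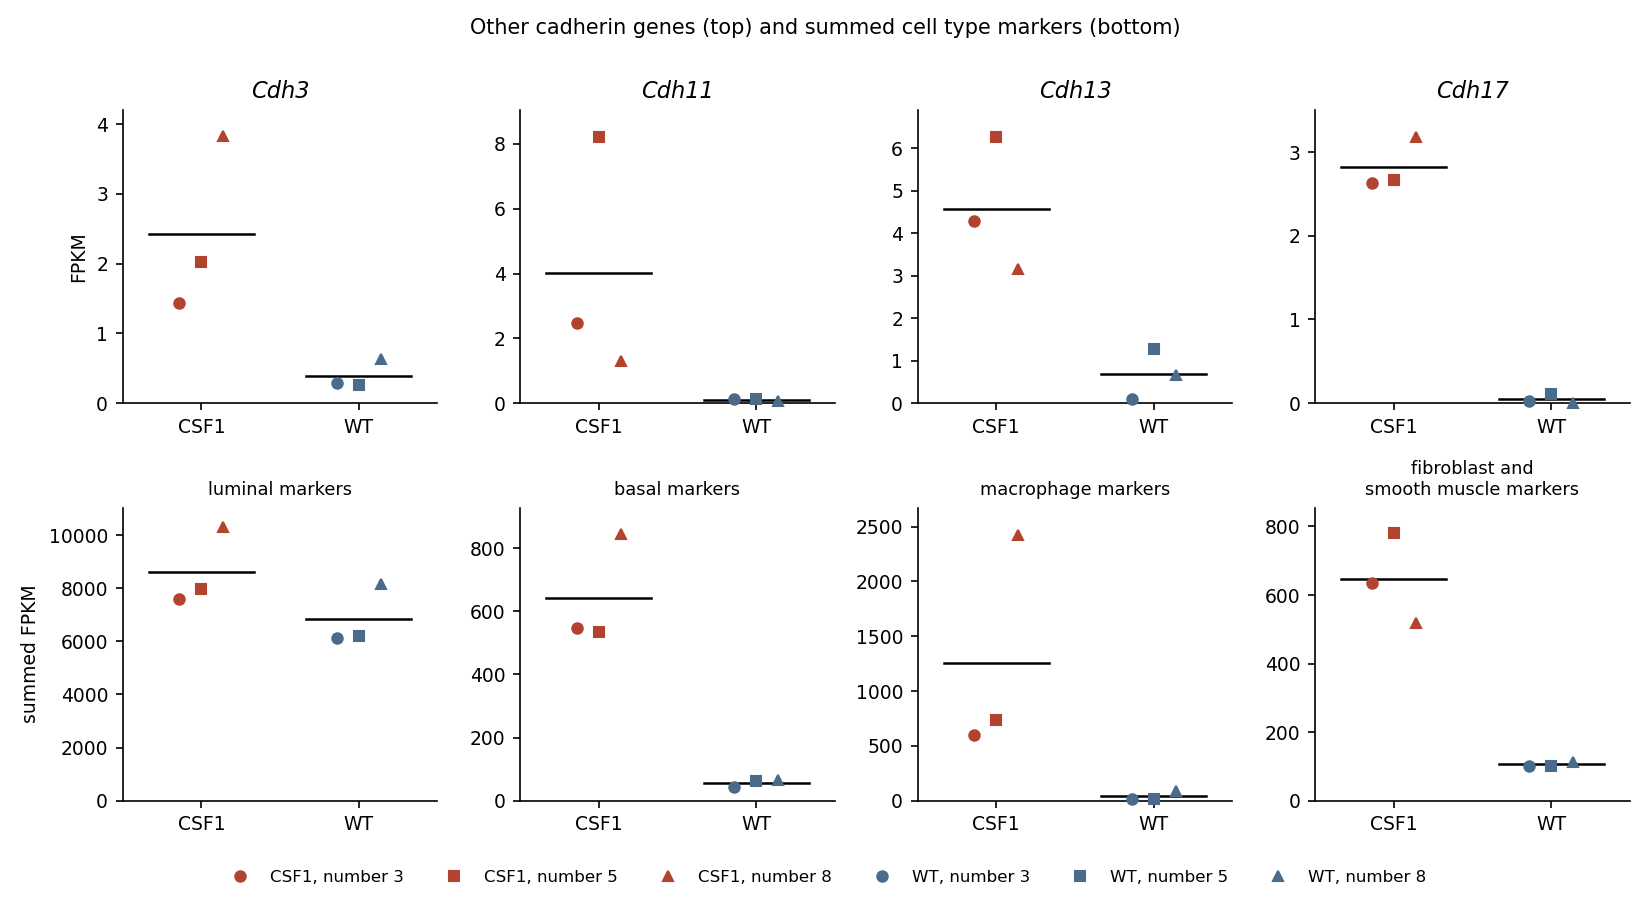
Level in FPKM of Cdh3, Cdh11, Cdh13 and Cdh17 (top) and summed FPKM of luminal, basal, macrophage and fibroblast and smooth muscle markers (bottom) in every library, CSF1 left and WT right, with a bar at the group mean. All CSF1 points lie above all WT points in the panels of the 4 cadherins and of the basal, macrophage and fibroblast and smooth muscle markers, and the luminal sums of 7591 to 10310 FPKM in CSF1 and 6141 to 8168 FPKM in WT overlap.

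Among the catenins, Ctnnb1, the gene of beta-catenin (chr9:120929216-120960507, plus strand), was at 154.6, 188.1 and 163.3 FPKM in CSF1, against 76.98, 99.1 and 103.4 FPKM in WT. Every CSF1 library was well above every WT library. The means were 168.7 ± 17.4 FPKM in CSF1 and 93.2 ± 14.2 FPKM in WT (SD, n = 3 each), a ratio of 1.81. The log2 change was 0.86 ± 0.15 (SE, 95% interval 0.51 to 1.21, limma adjusted p = 0.00331), with an exact permutation p = 0.1. The call held under 16 of 17 alternatives and was lost without both libraries numbered 5, where the log2 change was 0.83 and the limma adjusted p was 0.0511. Per 100 FPKM of Epcam the groups overlapped, with 16.0, 22.1 and 15.6 in CSF1 and 12.2, 16.2 and 14.5 in WT. Against 100 FPKM of Krt18 they did not, with 8.91, 9.40 and 6.14 in CSF1 and 3.75, 4.69 and 3.88 in WT. The exons of Ctnnb1 share bases with Ulk4 on the other strand, which the libraries do not tell apart, but Ulk4 was listed at no more than 0.341 FPKM in CSF1 and 0.200 FPKM in WT.

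Ctnnb1 has 2 listed transcripts with the same coding exons, which begin 178 bases apart. The one with the longer first exon, NM_007614, was at 43.6, 56.9 and 47.4 FPKM in CSF1 and at 15.4, 20.2 and 36.9 FPKM in WT. The one with the shorter first exon, NM_001165902, was at 111, 131.2 and 115.9 FPKM in CSF1 and at 61.6, 78.9 and 66.6 FPKM in WT. Both rose, by 1.08 ± 0.30 for the longer (SE, limma adjusted p = 0.0357 over 12785 transcripts) and by 0.79 ± 0.14 for the shorter (limma adjusted p = 0.00627) on the log2 scale, where 25.5% of all tested transcripts passed in either direction and 19.7% as higher. The shorter passed under 11 of 11 alternatives and the longer under 5 of 11. The longer one made up 28.2%, 30.3% and 29.0% of Ctnnb1 FPKM in CSF1 and 19.9%, 20.4% and 35.7% in WT, where library 8 stood apart, and their within-library log2 ratio differed by 0.30 between the groups (exact permutation p = 0.4).

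Ctnnd1, the gene of p120-catenin (chr2:84600071-84650765, minus strand), was at 35.4, 34.9 and 32.1 FPKM in CSF1, against 23.0, 26.5 and 25.97 FPKM in WT. The groups did not overlap, and the gap between them was small beside that of Cdh1. The means were 34.1 ± 1.78 FPKM in CSF1 and 25.2 ± 1.86 FPKM in WT (SD, n = 3 each), a ratio of 1.36, and the log2 change was 0.43 ± 0.13 (SE, 95% interval 0.13 to 0.72, limma adjusted p = 0.0340, exact permutation p = 0.1). This call held under only 6 of 17 alternatives: it was lost with quantile normalization (log2 change 0.20, limma adjusted p = 0.201), with median-ratio scaling (0.20, limma adjusted p = 0.187), without a trend, and on leaving out any single library other than CSF1 library 8. Read per 100 FPKM of Epcam it was at 3.67, 4.11 and 3.07 in CSF1 and at 3.65, 4.33 and 3.65 in WT, so the groups overlapped. GENCODE also places the protein-coding gene Gm28635 on the same strand, where it shares 4482 exon bases with Ctnnd1. Gm28635 was not analysed here, and its reads cannot be told apart from those of Ctnnd1.

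The transcripts of Ctnnd1 differ in the protein they make. Translation of p120-catenin can begin at several start codons: the long form with the upstream start is known from mesenchymal cells and macrophages, and shorter forms with a downstream start are known from epithelial cells. Of 5 listed transcripts, 3 were listed at 0 in every library, and the other two carried all of the signal. NM_001085453 begins its coding sequence in exon 2 and NM_001085449 in exon 3, so the first has 101 codons at its start that the second lacks. The second in turn has a coding exon of 63 bases that the first lacks. The first coding stretch of each and the 63-base exon are shown from the GRCm38 genome with GENCODE exons, on the coding (minus) strand. Capitals mark the start codons in the first pair, and in the third the 63-base exon, between 30 bases of each neighbouring exon. The second stretch is coding in both transcripts, and only in NM_001085449 does the reading begin there.
Upstream start, NM_001085453, chr2:84624270-84624464: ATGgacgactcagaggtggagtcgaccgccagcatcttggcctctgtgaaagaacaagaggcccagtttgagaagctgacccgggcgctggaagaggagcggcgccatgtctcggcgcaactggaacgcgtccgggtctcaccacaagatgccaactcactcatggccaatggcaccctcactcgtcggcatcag
Downstream start, NM_001085449, chr2:84620835-84620951: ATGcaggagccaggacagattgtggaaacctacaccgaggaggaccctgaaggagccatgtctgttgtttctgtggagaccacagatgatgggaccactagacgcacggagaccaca
Exon 15 of NM_001085449, exon at chr2:84605184-84605246: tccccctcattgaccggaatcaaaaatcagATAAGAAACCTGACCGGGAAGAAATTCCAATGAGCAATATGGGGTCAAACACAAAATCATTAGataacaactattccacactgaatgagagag

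The transcript with the upstream start codon was at 15.96, 15.7 and 12.3 FPKM in CSF1, against 7.77, 8.95 and 9.21 FPKM in WT. The transcript with the downstream start codon was at 19.4, 19.1 and 19.8 FPKM in CSF1, against 15.3, 17.5 and 16.8 FPKM in WT. Neither transcript's groups overlapped, and the upstream one differed more. Among all tested genes, 34.7% were apart and higher in CSF1, and that share was not counted over transcripts. Its log2 change was 0.70 ± 0.16 (SE, limma adjusted p = 0.0173), and it passed under 5 of 11 alternatives. The downstream one had a log2 change of 0.23 ± 0.12 (limma adjusted p = 0.229), which did not pass, and the change was -0.029 with quantile normalization.

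Within each library the upstream-start transcript thus took 45.1%, 45.1% and 38.4% of Ctnnd1 FPKM in CSF1, against 33.7%, 33.8% and 35.5% in WT. The WT shares were within 2 percentage points of each other, and all 3 CSF1 shares were higher. The log2 ratio of the upstream to the downstream transcript was -0.27, -0.27 and -0.64 in CSF1 and -0.89, -0.90 and -0.80 in WT, a difference of 0.47 (exact permutation p = 0.1, adjusted p = 0.2 over the 2 transcript ratios, a test added after the data were seen). CSF1 library 8 was nearest to WT. Of the CSF1 group it had the highest luminal (10310 FPKM), basal (844 FPKM), macrophage (2427 FPKM) and endothelial (16.4 FPKM) markers. It had the lowest fibroblast and smooth muscle markers of that group (520 FPKM). The part of any of these cells was not tested. Cufflinks divides shared reads between transcripts by a model, so each transcript value is an estimate.

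**Figure D3:**
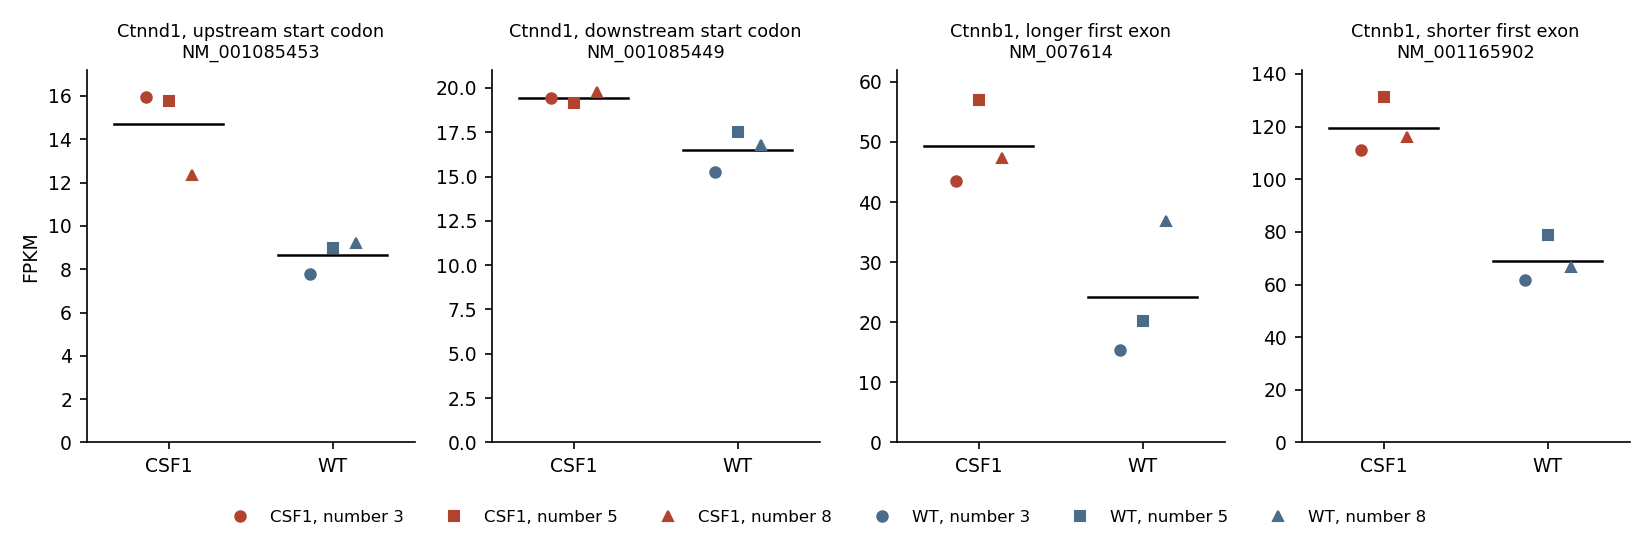
Level in FPKM of the 2 detected Ctnnd1 transcripts and the 2 Ctnnb1 transcripts in every library, CSF1 left and WT right, with a bar at the group mean. The upstream-start Ctnnd1 transcript lies at 12.3 to 15.96 FPKM in CSF1 and at 7.77 to 9.21 FPKM in WT, and in all 4 panels the CSF1 points lie above the WT points. The same held for 34.7% of all tested genes.

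Jup encodes plakoglobin, the catenin found in both kinds of junction (chr11:100368958-100397763, minus strand). It was at 62.3, 64.8 and 81.9 FPKM in CSF1, against 49.6, 51.4 and 70.7 FPKM in WT. Library 8 was the highest of each group, and WT library 8 lay above 2 of the CSF1 libraries. The means were 69.6 ± 10.7 FPKM in CSF1 and 57.3 ± 11.7 FPKM in WT (SD, n = 3 each), and the log2 change of 0.29 ± 0.18 did not pass (SE, 95% interval -0.12 to 0.69, limma adjusted p = 0.260, exact permutation p = 0.3). Within each number CSF1 was higher, by 1.25-fold, 1.26-fold and 1.16-fold for numbers 3, 5 and 8, but with the number as a block the adjusted p of limma was 0.0938. Per 100 FPKM of Epcam, which was itself higher in CSF1, Jup was at 6.45, 7.62 and 7.83 in CSF1 and 7.87, 8.41 and 9.95 in WT. Per 100 FPKM of Krt18 it was higher in CSF1, at 3.59, 3.24 and 3.08 against 2.41, 2.43 and 2.65 in WT. Against Krt8 the groups overlapped.

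Beta-catenin and plakoglobin are close relatives that compete for the same cadherin tail, so their ratio within a library was compared. The log2 ratio of Jup to Ctnnb1 was -1.30, -1.52 and -0.99 in CSF1, against -0.62, -0.93 and -0.54 in WT. The groups did not overlap, and the difference was -0.57 (exact permutation p = 0.1, adjusted p = 0.16 over 8 ratios). As shares of the FPKM of Ctnnb1, Jup, Ctnnd1 and Ctnna1 together, Ctnnb1 was at 44.5 ± 1.79% in CSF1 and 38.9 ± 2.60% in WT, and Jup at 18.4 ± 2.89% in CSF1 and 23.9 ± 3.08% in WT (SD, n = 3 each). The log2 ratio of Ctnnd1 to Cdh1 was also lower in CSF1, at -2.35, -2.42 and -2.53 against -1.66, -1.73 and -2.01 in WT, a difference of -0.64 with no overlap (exact permutation p = 0.1, adjusted p = 0.16). For Ctnnb1 against Cdh1 the groups overlapped, with a difference of -0.21 (exact permutation p = 0.2, adjusted p = 0.267). None of the 8 ratios passed after adjustment, and with 3 against 3 none could.

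Of 14 other catenins and actin linkers, 10 were tested, 3 passed as higher, 2 as lower and 5 did not pass, where 24.9% of all tested genes passed as higher and 7.47% as lower. Their median log2 change was 0.39. Ctnna1, the gene of the alpha-catenin that joins beta-catenin to actin, was at 100.7, 116.6 and 101.3 FPKM in CSF1 and at 64.4, 65.3 and 59.4 FPKM in WT (log2 change 0.74, limma adjusted p = 0.00238). Sorbs3, which encodes the vinculin-binding protein vinexin, rose by 0.93 on the log2 scale (limma adjusted p = 0.00391), and the third was Actn4, an actin cross-linker (0.57, limma adjusted p = 0.0316). Ctnnbip1 encodes a small protein that keeps beta-catenin from binding TCF factors, and it fell in CSF1 to 3.59, 5.38 and 3.70 FPKM, against 10.4, 13.8 and 17.0 FPKM in WT (log2 change -1.49, limma adjusted p = 0.00121, held under 17 of 17 alternatives). Ctnnal1, an alpha-catenin relative, also fell (-0.76, limma adjusted p = 0.0257) and held under 10 of 17 alternatives.

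Dsp, Dsg2, Dsc2 and Pkp1 had lower levels per length than the 3 catenin genes above in both groups. Dsp encodes desmoplakin, the link to keratin (chr13:38151294-38198577, plus strand). It was at 14.7, 10.7 and 13.5 FPKM in CSF1, against 10.8, 10.7 and 8.74 FPKM in WT. CSF1 library 5 lay at the level of the WT libraries and the other CSF1 libraries above them. The log2 change was 0.33 ± 0.17 (SE, 95% interval -0.06 to 0.71, limma adjusted p = 0.175, exact permutation p = 0.3). Its exons share 499 bases with Gm10129 on the other strand, and those of Dsg2 share 330 bases with the antisense gene Gm16090, and neither was analysed here.

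Dsg2 encodes desmoglein 2, the desmoglein of simple epithelia (chr18:20558074-20604521, plus strand). It was at 6.55, 5.87 and 6.83 FPKM in CSF1, against 5.88, 4.73 and 5.55 FPKM in WT, so CSF1 library 5 and WT library 3 met at the same level. The log2 change was 0.22 ± 0.16 (SE, 95% interval -0.15 to 0.58, limma adjusted p = 0.336, exact permutation p = 0.2), and it was -0.13 with quantile normalization. Per 100 FPKM of Epcam, itself higher in CSF1, Dsg2 was at 0.679, 0.691 and 0.653 in CSF1 and at 0.932, 0.773 and 0.781 in WT, which did not overlap. Against 100 FPKM of Krt18 the groups overlapped, at 0.378, 0.294 and 0.257 in CSF1 and 0.286, 0.223 and 0.208 in WT, and they also overlapped against Krt8.

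Dsc2 encodes desmocollin 2, the usual partner of desmoglein 2 (chr18:20030633-20059554, minus strand). It was at 3.29, 3.80 and 3.25 FPKM in CSF1, against 6.07, 1.22 and 3.84 FPKM in WT. The 3 CSF1 libraries were alike, and the WT libraries lay on both sides of them. The spread in WT was far wider than Cufflinks' own intervals, which were 5.64 to 6.50 FPKM in WT library 3 and 1.03 to 1.40 FPKM in WT library 5. The log2 change was 0.07 ± 0.38 (SE, 95% interval -0.79 to 0.93, limma adjusted p = 0.911, exact permutation p = 1), and WT library 5 set its sign, since without it the change was -0.40. The ratio of Dsc2 to Dsg2 within a library ranged in log2 from -0.88 to -0.52 in CSF1 and from -1.37 to 0.04 in WT.

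Pkp1 encodes plakophilin 1, a plakophilin of stratified and basal epithelia (chr1:135871395-135919207, minus strand). It was at 0.740, 0.649 and 0.975 FPKM in CSF1, against 0.00733, 0 and 0.0172 FPKM in WT. It was low in every CSF1 library and at or next to 0 in every WT library, with no overlap, as for 21.0% of all genes with no filter that were higher in CSF1. Its mean lay under the filter of 1 FPKM, and without the filter the difference in log2(FPKM + 1) was 0.82 (limma adjusted p = 0.00930, where 10.2% of 24337 genes passed in either direction and 8.33% as higher; exact permutation p = 0.1). The size of that difference rests on the pseudocount, with 3.02 at a pseudocount of 0.1 and 0.21 at 5. The mean read depth over the transcript was 3.09, 3.25 and 4.26 in CSF1 and 0.0234, 0 and 0.0468 in WT. All 6 tested basal markers passed as higher in CSF1 as well, where 24.9% of all tested genes did. That count cannot be read as support, since Col17a1 reached the filter through CSF1 alone. The basal marker Trp63 was under the filter and its groups overlapped, with 0.338 FPKM in CSF1 library 8 and 0.364 FPKM in WT library 3. Krt5 was at 17.6, 16.3 and 29.8 FPKM in CSF1 and at 2.33, 2.19 and 3.44 FPKM in WT. The desmosomal cadherin genes of stratified and basal epithelia stayed near 0, with Dsg3 at no more than 0.00615 FPKM in CSF1 and 0 in WT and Dsc3 at no more than 0.223 FPKM in CSF1 and 0 in WT. The part of basal cells in the Pkp1 level was not tested.

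Pkp1 remained a small share of plakophilin mRNA, at 1.52 ± 0.0480% of the FPKM of the 4 plakophilin genes in CSF1 and 0.0217 ± 0.0232% in WT (SD, n = 3 each). Pkp3 held most of it, with 66.3 ± 2.79% in CSF1 and 59.7 ± 0.987% in WT. Of 13 other genes of desmosomes and of their plakin linkers, 6 were tested, 2 passed as higher, 0 as lower and 4 did not pass, a share of higher genes near the 24.9% of all tested genes, with a median log2 change of 0.45. The higher ones were Ppl, the gene of periplakin (log2 change 0.85, limma adjusted p = 0.00393), and Pkp3, which held under only 5 of 17 alternatives (0.62, limma adjusted p = 0.0419). Perp, a membrane protein that desmosomes need, had a log2 change of -0.19 (limma adjusted p = 0.394), and Pkp2 one of 0.39 (limma adjusted p = 0.213).

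**Figure D4:**
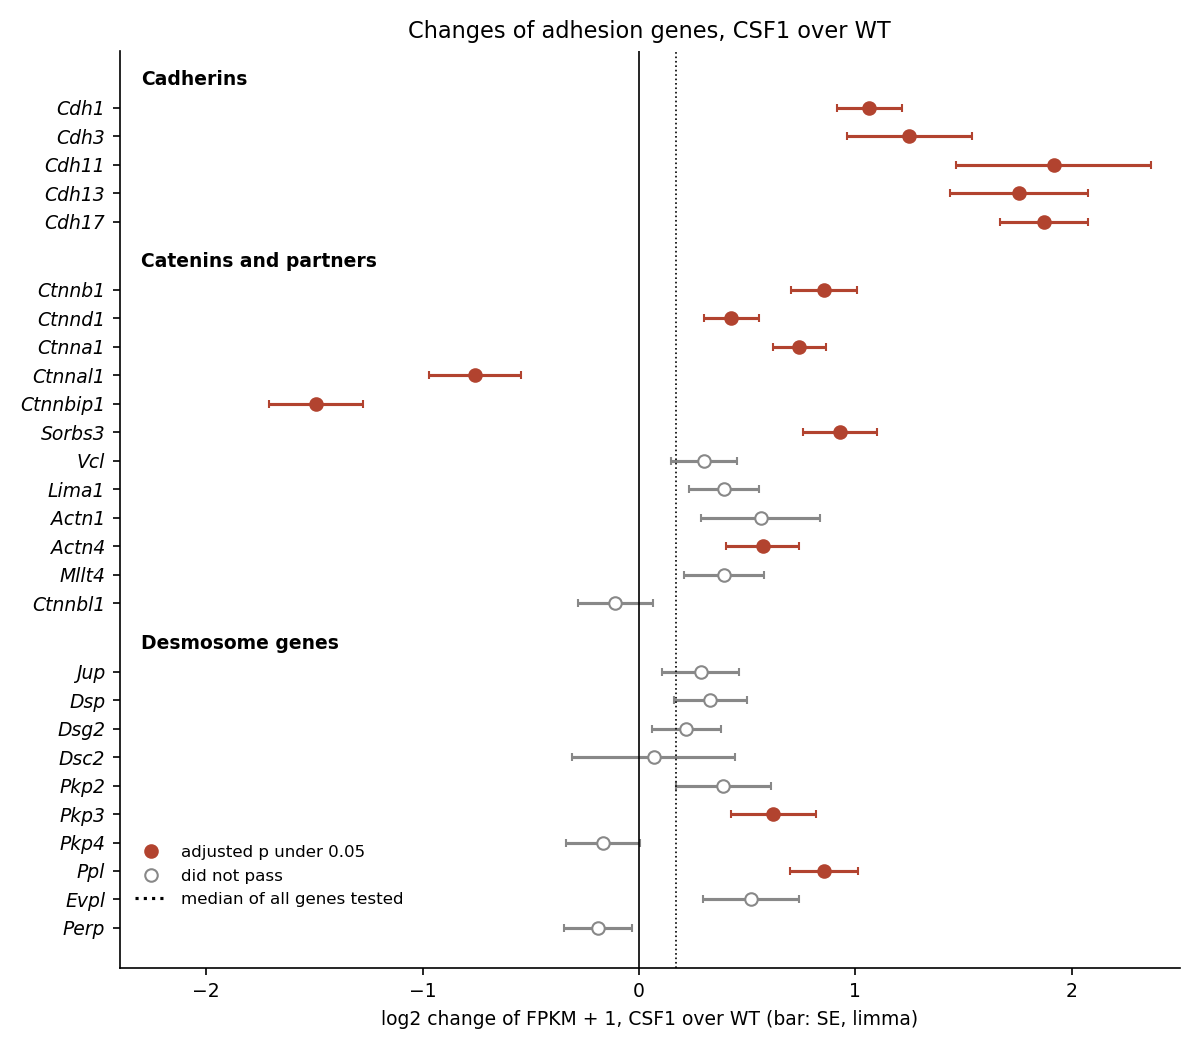
Log2 change of FPKM + 1, CSF1 over WT, with its limma standard error, for the tested cadherin, catenin and desmosome genes and their listed relatives. Filled red points passed an adjusted p of 0.05 and open grey points did not, and the dotted line is the median of all tested genes at 0.17; Ctnnbip1 at -1.49 and Ctnnal1 at -0.76 are the 2 that passed as lower.

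In order of level per length, the CSF1 libraries ran from Cdh1 (188.8 FPKM) through Ctnnb1 (168.7 FPKM), Jup (69.6 FPKM), Ctnnd1 (34.1 FPKM), Dsp (12.98 FPKM), Dsg2 (6.42 FPKM), Dsc2 (3.45 FPKM) and Pkp1 (0.788 FPKM) down to Cdh2 and Cdh16. The WT libraries ran from Ctnnb1 (93.2 FPKM) and Cdh1 (90.7 FPKM) through Jup (57.3 FPKM), Ctnnd1 (25.2 FPKM), Dsp (10.1 FPKM), Dsg2 (5.39 FPKM) and Dsc2 (3.71 FPKM) down to Cdh2, Cdh16 and Pkp1. Cdh1 and Ctnnb1 overlapped in level in both groups, and Dsg2 and Dsc2 overlapped in WT. The order from Jup to Dsc2 was the same in CSF1 and WT, and Pkp1 was the gene that changed places with the near-silent cadherins.

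The promoters of 4 of the 10 genes were in the RefSeq table used (GRCm38.p6). They were searched on both strands for CAGGTG, an E-box bound by Snail and Zeb repressors, for GGGCGG, the GC box of Sp factors, and for TTCNNNGAA, the STAT half-site pair, which do not overlap each other in these windows. CAGGTG and TTCNNNGAA were in none of the 4 in the 250 bases before the start, where 17.1% and 7.20% of 27025 promoters of that length hold them. GGGCGG, which 32.9% of them hold, was found for Ctnnb1 3 times before the start of NM_007614 and 2 times before that of NM_001165902, in windows that overlap. It was found 2 times for Jup, 4 times for Dsp and not for Ctnnd1. A gene that passed as higher, Ctnnb1, and one that did not pass, Jup, are shown, with GC boxes of either strand in capitals. The Ctnnb1 window shown is that of NM_007614, the listed transcript with the lower FPKM.
Ctnnb1, chr9:120933150-120933399, plus strand: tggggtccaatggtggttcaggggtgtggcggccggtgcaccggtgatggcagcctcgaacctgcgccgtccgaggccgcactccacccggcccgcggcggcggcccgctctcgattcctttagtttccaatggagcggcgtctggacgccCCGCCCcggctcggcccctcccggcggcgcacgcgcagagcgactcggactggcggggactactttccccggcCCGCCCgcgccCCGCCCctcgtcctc
Jup, chr11:100397791-100398040, minus strand: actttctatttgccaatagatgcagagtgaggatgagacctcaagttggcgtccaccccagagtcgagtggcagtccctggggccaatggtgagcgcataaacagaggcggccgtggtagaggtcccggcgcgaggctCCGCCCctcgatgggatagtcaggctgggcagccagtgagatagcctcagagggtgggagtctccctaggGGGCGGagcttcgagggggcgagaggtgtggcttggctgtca
A match is a description of these letters only, and its bearing on either level was not tested.

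Repressors of Cdh1, epithelial transcription factors and the epithelial splicing regulators Esrp1 and Esrp2 were counted beside Cdh1. Of these 16 genes, 9 were tested, 3 passed as higher, 0 as lower and 6 did not pass. The share of higher genes was near the 24.9% of all tested genes, and the median log2 change was 0.07. The 6 that did not pass were Grhl1, Grhl2, Ovol1, Ovol2, Esrp1 and Esrp2, so the count and the median pool repressors with epithelial factors. The higher ones were Snai2, the gene of the repressor Slug that basal cells also use (1.15, limma adjusted p = 0.0162), Tcf3 (0.85, limma adjusted p = 0.00369) and Tcf4 (0.60, limma adjusted p = 0.0336), which encode E-proteins. Snai2 was at 1.24, 3.29 and 1.58 FPKM in CSF1 and at 0.174, 0.238 and 0.552 FPKM in WT, so it reached the filter through CSF1 alone, and its call held under 10 of 15 alternatives. The Tcf3 call was lost without both libraries numbered 5. The repressor genes Zeb1 and Zeb2 were under the filter, with Zeb1 at 0.943, 1.47 and 0.978 FPKM in CSF1 and at 0.207, 0.0511 and 0.309 FPKM in WT. Zeb2 was at 0.988, 0.682 and 2.34 FPKM in CSF1 and at 0.0397, 0.0526 and 0.135 FPKM in WT, highest in CSF1 library 8 with its macrophage markers. Snai1, Twist1 and Twist2 were also under the filter and higher in CSF1 without overlap, as in 21.0% of all genes with no filter. The groups overlapped for Snai3, under the filter as well. The epithelial activator Grhl2 had a log2 change of 0.32 (limma adjusted p = 0.343) and the epithelial splicing regulator Esrp1 one of -0.39 (limma adjusted p = 0.0845).

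Over the 6 libraries, the tested genes whose log2(FPKM + 1) followed Cdh1 most closely were Npepps (Pearson r = 0.9993), Slc5a8 (0.9987), Fam129b (0.998), Slc37a1 (0.998) and Paqr4 (0.998). These are descriptions over 6 points in 2 groups that share library and depth, and any gene that separates the groups in the same way will score high. Npepps, an aminopeptidase, was at 18.3, 18.5 and 18.5 FPKM in CSF1 and at 10.4, 11.4 and 12.9 FPKM in WT, with the same even CSF1 libraries and the same order in WT as Cdh1. Among the junction genes themselves, Ctnnb1 (0.981) and Ctnnd1 (0.965) followed Cdh1 closely, Jup (0.723), Dsg2 (0.677) and Dsp (0.594) less, and Dsc2 (-0.02) not.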

How the data were processed

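RNA of sorted prostate luminal cells was measured in 3 CSF1 and 3 WT libraries. Per the labels' protocols, cDNA came from the SMART-Seq v4 kit with random and oligo-dT priming; both Nextera XT and TruSeq DNA kits are named, neither marks strand, and sequencing was on an Illumina HiSeq instrument. Per the submitters' processing notes, bcl2fastq 1.8.3, TopHat and Cufflinks were used with mm10. The authors deposited 1 isoform table per library with values in FPKM, per the file headers. The deposited coverage column is a signal, the mean read depth, and equalled a constant times FPKM in each table. Fragment totals are not given, so the depth behind a value is known only as that mean read depth (Cdh1 had 771 in CSF1 library 3 and 239 in WT library 3).

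FPKM was summed per gene symbol, 9 genes with a HIDATA or FAIL status were left out, and 10951 genes averaging 1 FPKM or more were tested. The test was limma 3.58.1 in R 4.3.3 with an intensity trend on log2(FPKM + 1), which understates changes of low genes, two-sided, with Benjamini-Hochberg adjustment over all genes and a threshold of 0.05. The 12785 transcripts with a mean of at least 1 FPKM were tested alike. Single values and within-library ratios had exact two-sided permutation tests. The fit was tested on simulated data. Titles give both groups the numbers 3, 5 and 8. Deviations from the group means correlated over same-numbered libraries (0.257, 0.111 and 0.182) and were negative over the others (-0.227 to -0.0064). Deviations from a mean of 3 libraries cancel out, so positive values for some pairs push the others to be negative. This contrast therefore cannot establish that the numbers pair the libraries, and a block was an alternative fit.

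The genes, lists, tests and alternatives were chosen with earlier results of these data known. Named were all 10 genes, the 2 largest rises and falls past the threshold in each list, up to 3 genes of a marker list and the 5 genes most like Cdh1. Others were chosen after their values were seen: Actn4, Tcf4, Trp63, Col17a1, Csf1r, Col1a1, Dsg3, Dsc3, Perp and Pkp2. So were Snai1, Snai3, the Twist, Zeb, Grhl, Ovol and Esrp genes and those of the closing observations beyond that rule. Figures used Python 3.11.15, pandas 2.3.3 and matplotlib 3.10.9. Sequences came from GRCm38 with GENCODE exons and from RefSeq promoters.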

Additional observations from a re-analysis of the deposited data

How the results depend on the processing

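The limma calls of 7 genes were refitted under 17 alternatives, and Cdh1 kept its call in all. Ctnnb1 lost it without both libraries numbered 5 (log2 change 0.83). Ctnnd1 lost it with quantile normalization (0.20), median-ratio scaling (0.20), no trend (0.43), without both libraries numbered 3 (0.34), 5 (0.45) or 8 (0.49), and in 5 of 6 fits without 1 library (0.37 to 0.47). Without 1 library, 2 to 3 of the genes passed as higher, and 1 without both numbered 5. Dsc2 changed sign with a pseudocount of 5 (-0.0052; transcript -0.0052), quantile normalization (-0.36; transcript -0.32), median-ratio scaling (-0.11; transcript -0.10), without WT library 5 (-0.40 to 0.44 over single libraries) and without both numbered 5 (-0.45). With quantile normalization Dsg2 was at -0.13 (transcript -0.11) and the downstream-start Ctnnd1 transcript at -0.029. Over single libraries left out, the log2 ratio of Dsc2 to Dsg2 ran from -0.54 to 0.16 and that of Dsg2 to Dsp from -0.23 to 0.00068, and that of Pkp1 to Dsp was -0.041 with a pseudocount of 5. The cause of these shifts was not tested.

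Of all genes, 818 were lower, against 451 with no filter, 2301 with quantile normalization, 1762 with median-ratio scaling, 341 without both libraries numbered 5, 485 without both numbered 8 and 478 to 850 without 1 library. Higher were 2731, against 1793 with quantile normalization, 1519 without both numbered 5 and 2053 to 2489 without 1 library. With the library number as a replicate block, 2883 genes were higher and 890 lower, and no call of the 7 genes changed (Cdh1 1.06, Ctnnb1 0.86 and Ctnnd1 0.43).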

Other observations

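Genes that cut or remove E-cadherin were mostly higher in the libraries where Cdh1 was higher. Of 8 genes of cadherin shedding and turnover, 8 were tested, 5 passed as higher, 0 as lower and 3 did not pass, where 24.9% of all tested genes passed as higher. Their median log2 change was 0.97, and that of all genes was 0.17. Mmp7, a secreted protease that can cleave E-cadherin, was at 284, 122 and 233 FPKM in CSF1 and at 71.2, 23.3 and 26.6 FPKM in WT (log2 change 2.47, limma adjusted p = 0.00321). Adam17, a membrane protease that sheds growth factors and cytokines, was at 6.63, 8.42 and 9.41 FPKM in CSF1 and at 1.59, 1.68 and 2.86 FPKM in WT (log2 change 1.60, limma adjusted p = 0.000866). Adam10, the main sheddase of E-cadherin, was at 24.3, 26.8 and 24.6 FPKM in CSF1 and at 10.3, 9.78 and 13.0 FPKM in WT (log2 change 1.13, limma adjusted p = 0.000806). All 3 were higher in CSF1 without overlap of the groups, as were 34.7% of all tested genes. Whether E-cadherin protein was cut more was not measured.

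Nectins are another adhesion system of the adherens junction. The list of 5 genes holds the nectins and their relative Pvr, which is not itself a nectin. Of these, 4 were tested, 3 passed as higher, 0 as lower and 1 did not pass, where 24.9% of all tested genes passed as higher. Pvr was among those that passed (log2 change 0.77, limma adjusted p = 0.00820). Pvrl2 (nectin 2) was at 55.6, 50.3 and 69.2 FPKM in CSF1 and at 29.1, 26.0 and 37.6 FPKM in WT (log2 change 0.90, limma adjusted p = 0.00582). Pvrl3 (nectin 3) was at 2.61, 4.34 and 2.53 FPKM in CSF1 and at 0.768, 0.300 and 0.798 FPKM in WT (log2 change 1.35, limma adjusted p = 0.00389), so it reached the filter of 1 FPKM through CSF1 alone. Pvrl4 did not pass, with a log2 change of 0.20 (limma adjusted p = 0.509).

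Of 8 genes of the complex that marks beta-catenin for destruction, 6 were tested, 2 passed as higher, 0 as lower and 4 did not pass, a share of higher genes near the 24.9% of all tested genes, with a median log2 change of 0.26. Axin1, the scaffold of the complex, had a log2 change of 0.62 (limma adjusted p = 0.0496), which held under only 2 of 17 alternatives. Csnk1a1, the priming kinase, had one of 0.36 (limma adjusted p = 0.0403), which held under 5 of 17. Axin2, a common target of beta-catenin and TCF, was under the filter, at 0.391, 0.262 and 0.0962 FPKM in CSF1 and at 0.318, 0.141 and 0.236 FPKM in WT, and its groups overlapped. Axin2 is a single gene near the floor, and the activity of beta-catenin was not measured.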
